A study of Homo sapiens with 6 samples.

Results

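Hyaluronan is made by 3 synthase genes (HAS1, HAS2 and HAS3), taken apart by CEMIP and the hyaluronidases (HYAL1, HYAL2 and HYAL3), and held in matrices or at the cell surface by binding proteins (CD44, TNFAIP6 and VCAN). These 10 genes were described in KGN cells, a human granulosa-like tumour cell line, 48 h after transfection with siRNA against the long noncoding RNA SNHG5 or with a negative control siRNA. The members were chosen by name and role, among 20030 names in the count table, with the difference between these same 6 libraries known for HAS2 and CEMIP. The count differences of the 10 genes are therefore given as a description, without p-values. All 10 were in the table, and 7 were among the 12508 genes with enough counts to be tested; HAS1, HYAL1 and TNFAIP6 were not.

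The groups were SNHG5 siRNA and control siRNA, with 3 libraries each; the labels give the genotype as SNHG5 knockdown in the SNHG5 siRNA libraries and as WT in the control siRNA libraries. All came from a single tumour line, and the labels do not say whether the replicates were separate cultures, so the spread between them may be technical. SNHG5 itself was not analysed here, so its knockdown was not checked in these libraries. In such bulk samples, fewer cells of a type and less RNA per cell cannot be told apart.

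Hyaluronan is an unsulphated chain of alternating glucuronic acid and N-acetylglucosamine, which the synthases build at the plasma membrane from UDP-sugars and push out of the cell. Breakdown is shared between cell-surface and lysosomal hyaluronidases and CEMIP, which has a part in cutting long hyaluronan chains outside the lysosome. In the ovulating follicle, cumulus granulosa cells make a hyaluronan matrix around the oocyte, with HAS2 as its main synthase. The TNFAIP6 protein passes heavy chains of serum inter-alpha-trypsin inhibitor on to hyaluronan and so cross-links it, and versican binds to it.

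In GRCh38 with GENCODE v29, the synthases lie on separate chromosomes, HAS1 on chromosome 19 (51713112 to 51723994, minus strand), HAS2 on chromosome 8 (121612116 to 121641390, minus strand) and HAS3 on chromosome 16 (69105564 to 69118719, plus strand). CEMIP covers 80779343 to 80951776 on the plus strand of chromosome 15. The hyaluronidases HYAL3 (50292831 to 50299468), HYAL1 (50299889 to 50312381) and HYAL2 (50317790 to 50322906) form a row on the minus strand of chromosome 3, with gaps of 420 and 5408 bp within a span of 30076 bp. CD44 lies on chromosome 11 (35138870 to 35232402), TNFAIP6 on chromosome 2 (151357592 to 151380048) and VCAN on chromosome 5 (83471465 to 83582303), all on the plus strand. Their annotated exons add up to lengths from 1579 bp for TNFAIP6 to 14831 bp for VCAN.

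Libraries held 18232634 to 22088913 counts. SNHG5 siRNA replicate 2 stood apart, since longer genes tended to be lower in it than in its group (Spearman correlation of its deviation with exon length across 12349 genes, -0.444, against -0.222 to 0.351 in the other libraries). Results of the tested members are also given without this replicate. Of 11 granulosa markers, 7 were at 1 CPM (counts scaled to library size) or more, among them FOXL2 at a mean of 28.6 CPM with SNHG5 siRNA and 25.3 CPM with control siRNA, while CYP19A1, CYP11A1, INHA and AMHR2 were below that. The granulosa markers summed to 226.8 to 239.7 CPM with SNHG5 siRNA and 249.1 to 255.6 CPM with control siRNA. GATA4 fell most in CPM, from a mean of 106.4 with control siRNA to 82.4 with SNHG5 siRNA. INHBA, FSHR, NR5A2, INHA, AMHR2 and CYP11A1 also had lower means with SNHG5 siRNA. FOXL2, NR5A1, STAR and CYP19A1 had higher ones. None of 3 theca markers had a count, and 0 of 5 oocyte markers reached 1 CPM, with BMP15, DDX4 and FIGLA at 0. Of 6 leukocyte markers, 3 reached 1 CPM and CD3E and LYZ were at 0. The 6 summed to 29.3 to 31.4 CPM with SNHG5 siRNA and 25.1 to 28.5 CPM with control siRNA. Most of that sum was CD68, at a mean of 26.0 CPM with SNHG5 siRNA and 22.3 CPM with control siRNA. PTPRC and CSF1R had lower means with SNHG5 siRNA, and CD14 a higher one. Of 5 endothelial markers, 3 reached 1 CPM and CDH5 was at 0 (16.8 to 19.4 CPM with SNHG5 siRNA, 33.3 to 38.0 CPM with control siRNA). Most of that sum was KDR, at a mean of 15.3 CPM with SNHG5 siRNA and 32.1 CPM with control siRNA. TEK and PECAM1 also had lower means with SNHG5 siRNA, and VWF a higher one. Of 5 fibroblast and stroma markers, 3 reached 1 CPM and LUM was at 0 (4544 to 4822 CPM with SNHG5 siRNA, 5796 to 6155 CPM with control siRNA). Most of that sum was COL1A1, at a mean of 4391 CPM with SNHG5 siRNA and 5712 CPM with control siRNA. PDGFRA and DCN also had lower means with SNHG5 siRNA, and THY1 a higher one. Of 5 epithelial markers, 4 reached 1 CPM (2498 to 2774 CPM with SNHG5 siRNA, 3371 to 3503 CPM with control siRNA). Most of that sum was KRT18, at a mean of 2441 CPM with SNHG5 siRNA and 3286 CPM with control siRNA. CDH1 also had a lower mean with SNHG5 siRNA, while KRT8, KRT19 and EPCAM had higher ones. All libraries came from a single tumour line, so counts of a marker need not come from a separate cell type. What part such cells have in the differences below was not tested.

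Per gene length, CD44, VCAN and CEMIP stood above the other genes in both groups, and their order differed between the groups. The authors' FPKM (fragments scaled to gene length and depth) of CD44 averaged 36.6 ± 1.29 with SNHG5 siRNA and 33.6 ± 1.23 with control siRNA (SD, n = 3 each, as for all means below). VCAN averaged 20.8 ± 2.69 FPKM with SNHG5 siRNA and 15.7 ± 1.01 FPKM with control siRNA. CEMIP averaged 14.5 ± 1.01 FPKM with SNHG5 siRNA, below CD44 and VCAN, and 37.4 ± 1.03 FPKM with control siRNA, above both.

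Below these came HYAL2, HYAL3, the synthases HAS2 and HAS3, and HYAL1, with HAS1 and TNFAIP6 listed at 0 FPKM in all 6 libraries. With SNHG5 siRNA the ranges of HAS2 and HAS3 overlapped, so their order was not resolved; with control siRNA HAS3 lay above HAS2 without overlap. The other neighbours among the genes above 0 FPKM had separate ranges over the 3 libraries of each group. The order was the same, for all 20 ranks in the 2 groups, with CPM per kilobase of annotated exons. Ranks 9 and 10 were HAS1 and TNFAIP6, tied at 0 FPKM and kept in list order, so nothing was read from those ranks.

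**Figure D1:**
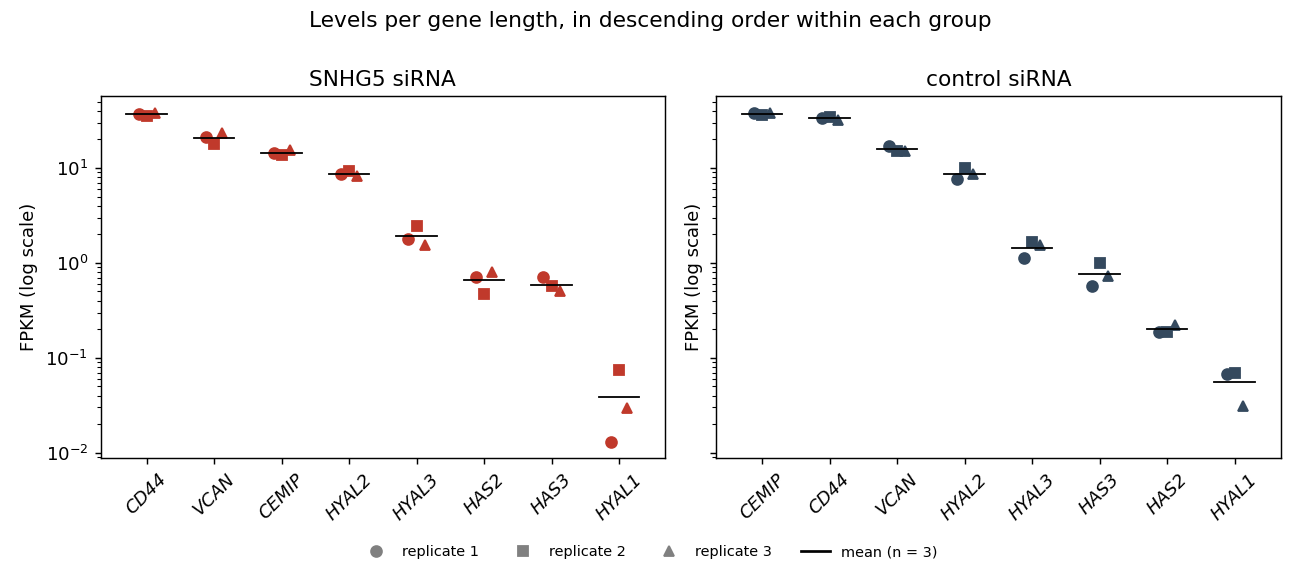
FPKM on a log axis for the 8 genes above 0 FPKM, ordered by mean within SNHG5 siRNA (left) and control siRNA (right); points are the 3 libraries and lines their mean. CEMIP is behind CD44 and VCAN with SNHG5 siRNA and at the top with control siRNA. HAS3 lies above HAS2 with control siRNA, while their ranges overlap with SNHG5 siRNA.

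Of the 7 tested genes, HAS2, CD44 and VCAN were higher and CEMIP lower with SNHG5 siRNA at an adjusted p under 0.05 (edgeR's quasi-likelihood test over all tested genes, Benjamini-Hochberg adjustment); HAS3, HYAL2 and HYAL3 did not pass. In the same comparison 40.2% of all tested genes passed, 20.3% as higher and 19.9% as lower. Of the genes that passed, 50.5% were higher with this scaling (TMM) and 39.95% with upper quartile scaling. CPM ranges of SNHG5 siRNA and control siRNA were separate for 4 of the 7 genes, against 49.8% of all tested genes. The median log2 fold change was 0.12 over the 7 genes and -0.01 over all tested genes. Since the genes were chosen with this contrast known and 3 were left out by the filter on low counts, nothing was read from these shares.

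**Figure D2:**
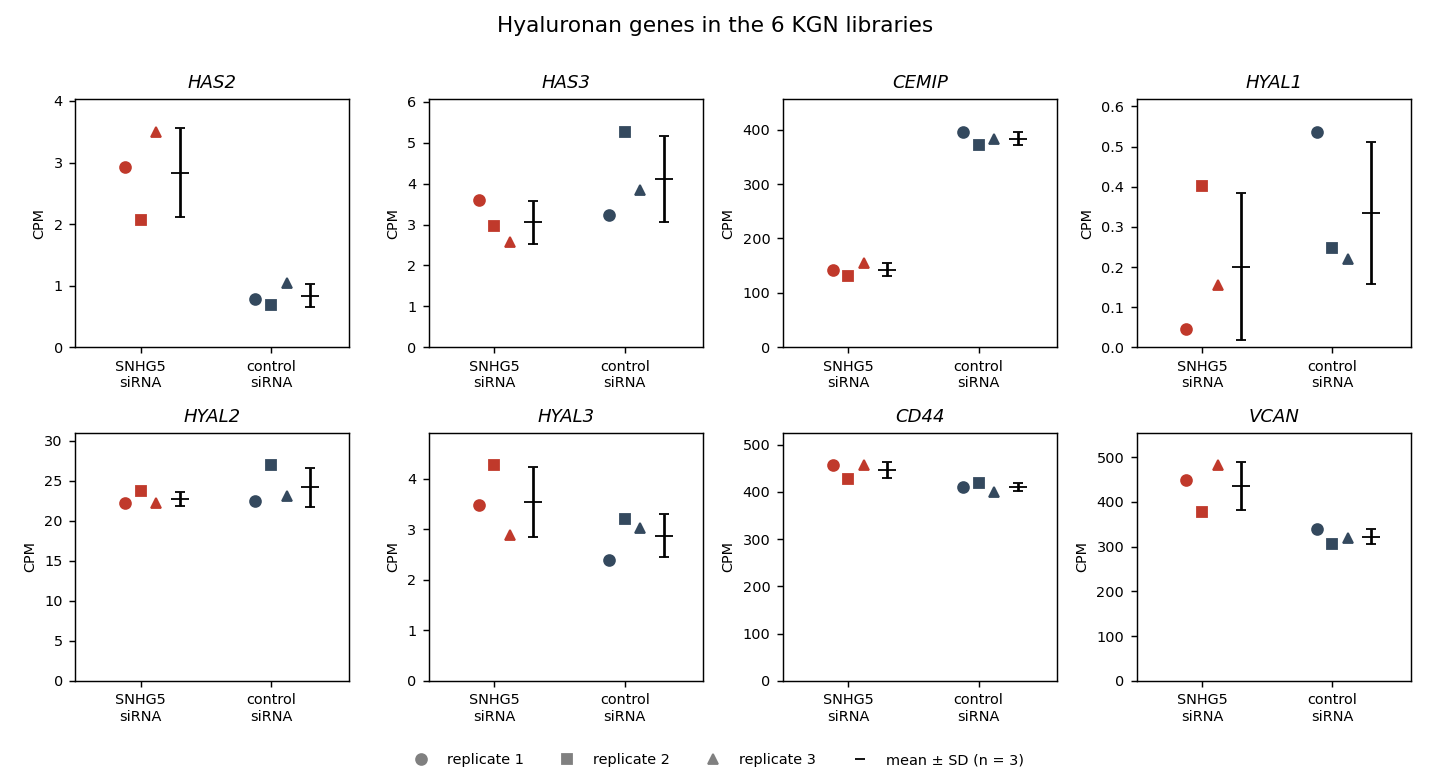
CPM of 8 of the genes in each library, SNHG5 siRNA left of control siRNA, with the mean and SD (n = 3) beside the points; HAS1 and TNFAIP6, at or near 0 counts, are not drawn. HAS2, CEMIP, CD44 and VCAN have groups that do not overlap, with a 1.09-fold difference for CD44.

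HAS2, the synthase of the expanding cumulus, was the gene of the list with the largest difference. It had 65, 41 and 68 counts in SNHG5 siRNA replicates 1, 2 and 3 (2.93, 2.06 and 3.50 CPM), against 16, 14 and 19 counts in control siRNA replicates 1, 2 and 3 (0.782, 0.690 and 1.05 CPM). Every SNHG5 siRNA library lay above every control siRNA library, although replicate 2 was the lowest of its group. The fitted log2 fold change was 1.76 ± 0.26 (SE), which is 3.39-fold higher with SNHG5 siRNA. The summed counts, 174 with SNHG5 siRNA and 49 with control siRNA, gave a ratio per library size of 3.41 with an exact 95% interval of 2.47 to 4.78, which covers counting error only. The log2 fold change was 1.94 without SNHG5 siRNA replicate 2. Even with SNHG5 siRNA the level stayed low per length, at 0.658 ± 0.170 FPKM against 0.199 ± 0.0204 FPKM with control siRNA. Its antisense partner HAS2-AS1, which shares 201 bp of exons with it, was not analysed here.

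HAS1, a further hyaluronan synthase, had 0, 0 and 1 count with SNHG5 siRNA and 0 counts in each control siRNA library. A count of 0 allows up to 3 counts, or 0.135 to 0.165 CPM in these libraries, so no difference was detectable at this depth.

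HAS3, which is known for making shorter chains than HAS2 in cultured cells, had 80, 59 and 50 counts with SNHG5 siRNA (3.61, 2.97 and 2.58 CPM), against 66, 107 and 70 counts with control siRNA (3.22, 5.27 and 3.85 CPM). The groups overlapped, since SNHG5 siRNA replicate 1 exceeded control siRNA replicate 1. Its log2 fold change of -0.42 ± 0.19 (SE) did not pass. It passed at -0.57 without SNHG5 siRNA replicate 1 and at -0.58 without control siRNA replicate 1. It was -0.20 without control siRNA replicate 2 and -0.40 without SNHG5 siRNA replicate 2, and passed in neither fit. The counting interval of its ratio, 0.746 (0.614 to 0.906), lay below 1, but does not hold the spread between libraries. Of its exons, 365 bp (6.90%) overlap CHTF8 on the other strand, whose log2 fold change was 0.18, and the sources used here do not say whether reads were counted by strand.

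The microRNA in the title of the study, hsa-miR-92a-3p, is shown with a member's 3' UTR because a match to its seed is a feature that HAS2 and HAS3 share and that the comparison of the groups did not use. The mature sequence is RefSeq's (GRCh38.p14, chromosome 13, 91351361 to 91351382, plus strand, 22 nt), with the seed, bases 2 to 8, in capitals. The second line is the stretch around base 27 of the longest HAS3 3' UTR in GENCODE v29, which is 2402 nt long, with the match to the seed in capitals.
hsa-miR-92a-3p: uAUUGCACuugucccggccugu
HAS3 3' UTR: gagcgggtaaaGTGCAATgggtaagggag
The word GTGCAAT, read on the transcript's strand, was in 2 of the 3 annotated HAS3 3' UTRs and in the only annotated HAS2 3' UTR, and in none of those of the other 8 genes. It was in 11.8% of 18770 names with an annotated 3' UTR and in 14.2% of the 12292 that were tested. HAS2 was higher with SNHG5 siRNA, and HAS3 did not pass. A match is a description of the letters and does not show that the microRNA binds there.

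The synthases' summed level overlapped between the groups, while the share of it held by HAS2 did not. HAS1, HAS2 and HAS3 summed to 1.41, 1.03 and 1.30 FPKM with SNHG5 siRNA, against 0.765, 1.18 and 0.949 FPKM with control siRNA. HAS2 made up 50.1%, 45.3% and 61.3% of the sum with SNHG5 siRNA, against 24.7%, 15.8% and 23.4% with control siRNA. These shares use the same HAS2 values as above and are no separate support for them.

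CEMIP, which had the highest FPKM of the list with control siRNA, though fewer CPM than CD44, was lower in every SNHG5 siRNA library. It had 142.3, 131.8 and 154.3 CPM with SNHG5 siRNA, against 396.3, 371.4 and 382.3 CPM with control siRNA, from at least 2619 counts per library. The libraries of each group lay close together and the groups were far apart. The log2 fold change was -1.42 ± 0.06 (SE), which is 2.68-fold lower with SNHG5 siRNA, and it was -1.37 without SNHG5 siRNA replicate 2. Of its exons, 224 bp (2.94%) overlap MESD on the opposite strand, which averaged 96.6 CPM with SNHG5 siRNA and 33.3 CPM with control siRNA, a log2 fold change of 1.54 and so opposite in direction to that of CEMIP.

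The CEMIP promoter is shown because CEMIP is the member with the largest fall and, of the 9 members with a promoter in the RefSeq table (all but HAS2), the only one to hold the TATA word. The window, chr15:80779120-80779419 on the plus strand of GRCh38.p14, runs from 250 bases before to 50 after the RefSeq start, has 73.0% G and C, and has TATAAA, in capitals, at position -30 from that start.
CEMIP promoter: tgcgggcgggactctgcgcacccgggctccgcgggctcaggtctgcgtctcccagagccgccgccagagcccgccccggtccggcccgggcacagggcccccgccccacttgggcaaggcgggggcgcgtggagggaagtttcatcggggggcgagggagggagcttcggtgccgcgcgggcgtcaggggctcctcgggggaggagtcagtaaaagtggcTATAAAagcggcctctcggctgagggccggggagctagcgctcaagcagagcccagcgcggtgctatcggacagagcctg
Searched on both strands, TATAAA was in 9.29% of the 21136 RefSeq promoters of this length for names in the count table. The other words searched were the AP-1 word TGANTCA (6.24% of promoters), the cyclic AMP response word TGACGTCA (2.22%) and the E-box CACGTG (8.41%). Among the 9, TNFAIP6 held the AP-1 word as TGAGTCA at position -129, HAS1 the cyclic AMP response word at -69 and HAS3 the E-box at -66. Both HAS1 and TNFAIP6 were at or next to 0 counts, so those words go with no measured level here.

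Among the hyaluronidases, HYAL2, a GPI-anchored enzyme that cuts long hyaluronan at the cell surface, had the highest level per length. HYAL2 had 22.3, 23.7 and 22.3 CPM with SNHG5 siRNA, against 22.5, 27.0 and 23.1 CPM with control siRNA, and the ranges overlapped. Its log2 fold change of -0.09 ± 0.08 (SE) did not pass and was 0.0022 on the log2(FPKM + 0.1) scale. Without SNHG5 siRNA replicate 2 it was -0.12. Of its exons, 509 bp (11.2%) overlap TUSC2 on the same strand, with a log2 fold change of -0.20.

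HYAL3, whose own activity is weak or disputed, had 3.48, 4.28 and 2.88 CPM with SNHG5 siRNA, against 2.39, 3.20 and 3.03 CPM with control siRNA. These ranges overlapped and the log2 fold change of 0.31 ± 0.19 (SE) did not pass; it was 0.16 without SNHG5 siRNA replicate 2, the library with the highest value. HYAL3 shares 43 bp of exons with IFRD2 on the same strand and 248 bp with NAA80, which was not analysed here.

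HYAL1, the lysosomal hyaluronidase, had 1, 8 and 3 counts with SNHG5 siRNA and 11, 5 and 4 counts with control siRNA, too few to be tested. The ratio of the sums, 12 with SNHG5 siRNA and 20 with control siRNA, was 0.576 with a counting interval of 0.257 to 1.24. Of the 3 neighbours on chromosome 3, HYAL2 and HYAL3 did not pass and HYAL1 was not tested.

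CEMIP and the hyaluronidases summed to 24.7, 25.4 and 25.3 FPKM with SNHG5 siRNA, against 47.0, 47.8 and 48.01 FPKM with control siRNA. CEMIP made up 58.2%, 53.3% and 61.4% of that sum with SNHG5 siRNA, against 81.2%, 75.7% and 78.9% with control siRNA. CEMIP exceeded HYAL2 by 1.68, 1.45 and 1.90 times in FPKM with SNHG5 siRNA, against 4.97, 3.66 and 4.42 times with control siRNA. These are the CEMIP values again, set against hyaluronidases of which HYAL2 and HYAL3 did not pass and HYAL1 was not tested.

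**Figure D3:**
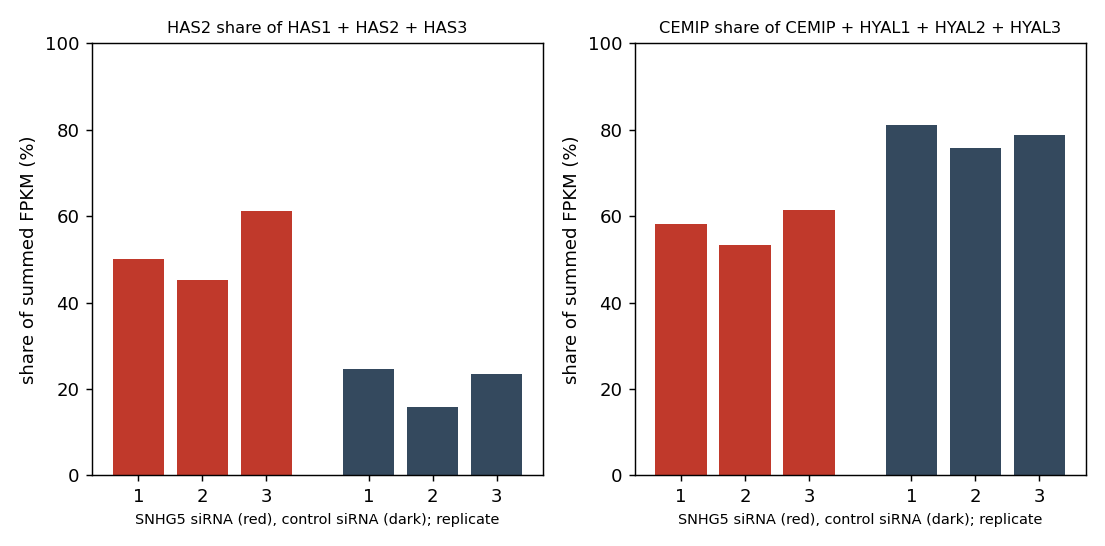
Share of the summed synthase FPKM held by HAS2, and share of the summed FPKM of CEMIP and the hyaluronidases held by CEMIP, in each library, SNHG5 siRNA left of control siRNA. HAS2 holds 45.3% to 61.3% with SNHG5 siRNA and 15.8% to 24.7% with control siRNA, while CEMIP holds 53.3% to 61.4% with SNHG5 siRNA and 75.7% to 81.2% with control siRNA.

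Of the binding genes, VCAN and CD44 were abundant and TNFAIP6 was not detected. VCAN, a large chondroitin sulphate proteoglycan that binds hyaluronan through its G1 domain, had 449.1, 376.4 and 482.5 CPM with SNHG5 siRNA, against 339.8, 307.0 and 319.5 CPM with control siRNA. All SNHG5 siRNA libraries were higher, replicate 2 least so. The log2 fold change was 0.44 ± 0.07 (SE), 1.35-fold higher with SNHG5 siRNA, and 0.54 without replicate 2. Gene counts do not separate its splice forms, or those of CD44.

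CD44, the main cell-surface receptor of hyaluronan, had 456.7, 427.6 and 457.0 CPM with SNHG5 siRNA, against 411.4, 418.3 and 400.4 CPM with control siRNA. SNHG5 siRNA replicate 2 was only just above the highest control siRNA library. The log2 fold change was 0.12 ± 0.05 (SE), 1.09-fold higher with SNHG5 siRNA. It passed narrowly: it no longer passed with upper quartile scaling (0.08), on either FPKM scale (0.12), or without any single library other than SNHG5 siRNA replicate 2, without which it was 0.16.

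TNFAIP6, the cross-linker of the cumulus matrix, had 0 counts in each of the 6 libraries, which allows up to 0.135 to 0.165 CPM per library. ITIH1 and ITIH2, which encode the heavy chains that TNFAIP6 passes on to hyaluronan, were also at 0 in all 6, and ITIH3 had 0, 0 and 0 counts with SNHG5 siRNA and 1, 0 and 2 counts with control siRNA.

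The wider pathway was counted in 5 lists chosen by function, with earlier results of these data known. The adjusted p-values of their genes are therefore also a description. With HAS2-AS1 added, the lists held 46 symbols. Of the 45 in the count table, 28 were tested, and 7 were higher, 6 lower and 15 did not pass; their median log2 fold change was 0.07. The groups did not overlap for 15 of the 28. Among all tested genes 40.2% passed and 49.8% did not overlap, and the shares in the lists were close to these.

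Of the 7 tested genes of UDP-sugar supply, GFPT1 was higher, GFPT2 was lower and 5 did not pass (median -0.04). GFPT1 and GFPT2 encode the enzyme forms that open the hexosamine pathway to UDP-N-acetylglucosamine. GFPT1 averaged 185.1 ± 1.25 CPM with SNHG5 siRNA and 143.1 ± 2.95 CPM with control siRNA, a log2 fold change of 0.37 ± 0.05 (SE) with an adjusted p = 8.05e-06 in edgeR's quasi-likelihood test. GFPT2, far scarcer, had 0.677, 1.31 and 0.721 CPM with SNHG5 siRNA, against 2.003, 2.41 and 2.36 CPM with control siRNA, and fell 2.51-fold (-1.33 ± 0.27 SE, edgeR adjusted p = 6.02e-04). UGDH, which makes UDP-glucuronic acid, had a log2 fold change of -0.07 and did not pass (edgeR adjusted p = 0.371). Nor did UGP2, which makes UDP-glucose (-0.10, edgeR adjusted p = 0.154), although it passed on the FPKM scales (-0.15 and -0.14), with upper quartile scaling (-0.14) and without SNHG5 siRNA replicate 2 (-0.12).

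Of 6 other breakdown genes, 4 were tested, 2 were higher and 1 lower (median 0.15), and HYAL4 and SPAM1 had 0 counts. CEMIP2, a cell-surface relative of CEMIP, averaged 34.5 ± 1.62 CPM with SNHG5 siRNA and 25.4 ± 1.98 CPM with control siRNA. It rose by 0.44 ± 0.08 (log2, SE; edgeR adjusted p = 1.47e-04), opposite in sign to CEMIP. HEXA, a subunit of a lysosomal hexosaminidase that trims hyaluronan fragments, averaged 105.6 ± 2.04 CPM with SNHG5 siRNA and 117 ± 3.38 CPM with control siRNA (-0.15, edgeR adjusted p = 0.0275), a call that ended on the FPKM scales and without any of SNHG5 siRNA replicates 1 and 3 and control siRNA replicates 2 and 3. GUSB, the lysosomal beta-glucuronidase, did not pass (0.03).

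Of 13 other receptors and binders, 4 were tested, 2 were higher and 1 lower (median 0.38), and LYVE1, STAB1, ACAN and NCAN had 0 counts. SUSD5, which carries a hyaluronan-binding link domain, averaged 74.4 ± 3.601 CPM with SNHG5 siRNA and 55.9 ± 2.18 CPM with control siRNA (0.41, edgeR adjusted p = 2.07e-05). HMMR, a hyaluronan receptor that also serves at the mitotic spindle, averaged 138 ± 4.11 CPM with SNHG5 siRNA and 108 ± 4.10 CPM with control siRNA (0.35, edgeR adjusted p = 4.13e-05). LAYN, a membrane receptor of hyaluronan, averaged 37.3 ± 1.29 CPM with SNHG5 siRNA and 42.9 ± 1.10 CPM with control siRNA (-0.20, edgeR adjusted p = 0.0167), and its call ended on the FPKM scales and without SNHG5 siRNA replicate 1 or control siRNA replicates 1 or 2. HAPLN3, a link protein, had 0.76 ± 0.30 and did not pass (edgeR adjusted p = 0.0509), but passed on log2(FPKM + 0.1) (0.77) and log2(FPKM + 1) (0.27).

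Of 13 cumulus expansion signals and matrix partners, 9 were tested, 2 were higher and 1 lower (median 0.22). PTGS2, which makes the prostaglandins of ovulation, had 1.35, 1.11 and 1.08 CPM with SNHG5 siRNA, against 0.489, 0.394 and 0.770 CPM with control siRNA (1.12 ± 0.33 SE, edgeR adjusted p = 0.0111). The PTGS2 call ended with DESeq2 (1.12) and without control siRNA replicate 2 (0.92). BTC, an EGF-like growth factor, averaged 7.27 ± 1.17 CPM with SNHG5 siRNA and 5.13 ± 0.419 CPM with control siRNA (0.50 ± 0.14, edgeR adjusted p = 0.00665), and its call ended with log2(FPKM + 0.1) (0.34) and log2(FPKM + 1) (0.19). AMBP, which encodes bikunin, the core of inter-alpha-trypsin inhibitor, averaged 0.717 ± 0.161 CPM with SNHG5 siRNA and 1.38 ± 0.480 CPM with control siRNA (-0.92 ± 0.32, edgeR adjusted p = 0.0280). The AMBP call ended with DESeq2 (-0.93), on log2(FPKM + 0.1) with no filter (-0.79), and without SNHG5 siRNA replicate 1 (-0.93) or 2 (-0.77) or control siRNA replicate 3 (-0.62).

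PTX3, a pentraxin that binds TNFAIP6 in the cumulus matrix, did not pass, at 17.7 ± 0.780 CPM with SNHG5 siRNA and 16.3 ± 1.21 CPM with control siRNA (0.12, edgeR adjusted p = 0.294). Neither did the growth factor AREG (0.22, edgeR adjusted p = 0.540) nor its receptor EGFR (-0.24, edgeR adjusted p = 0.0529). EGFR passed with upper quartile scaling (-0.28), with no filter (-0.23), and without SNHG5 siRNA replicate 1 (-0.32), SNHG5 siRNA replicate 3 (-0.33) or control siRNA replicate 2 (-0.29), and was at -0.08 without SNHG5 siRNA replicate 2. EREG, with 3, 1 and 2 counts with SNHG5 siRNA and 0, 2 and 4 counts with control siRNA, was too low to be tested.

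**Figure D4:**
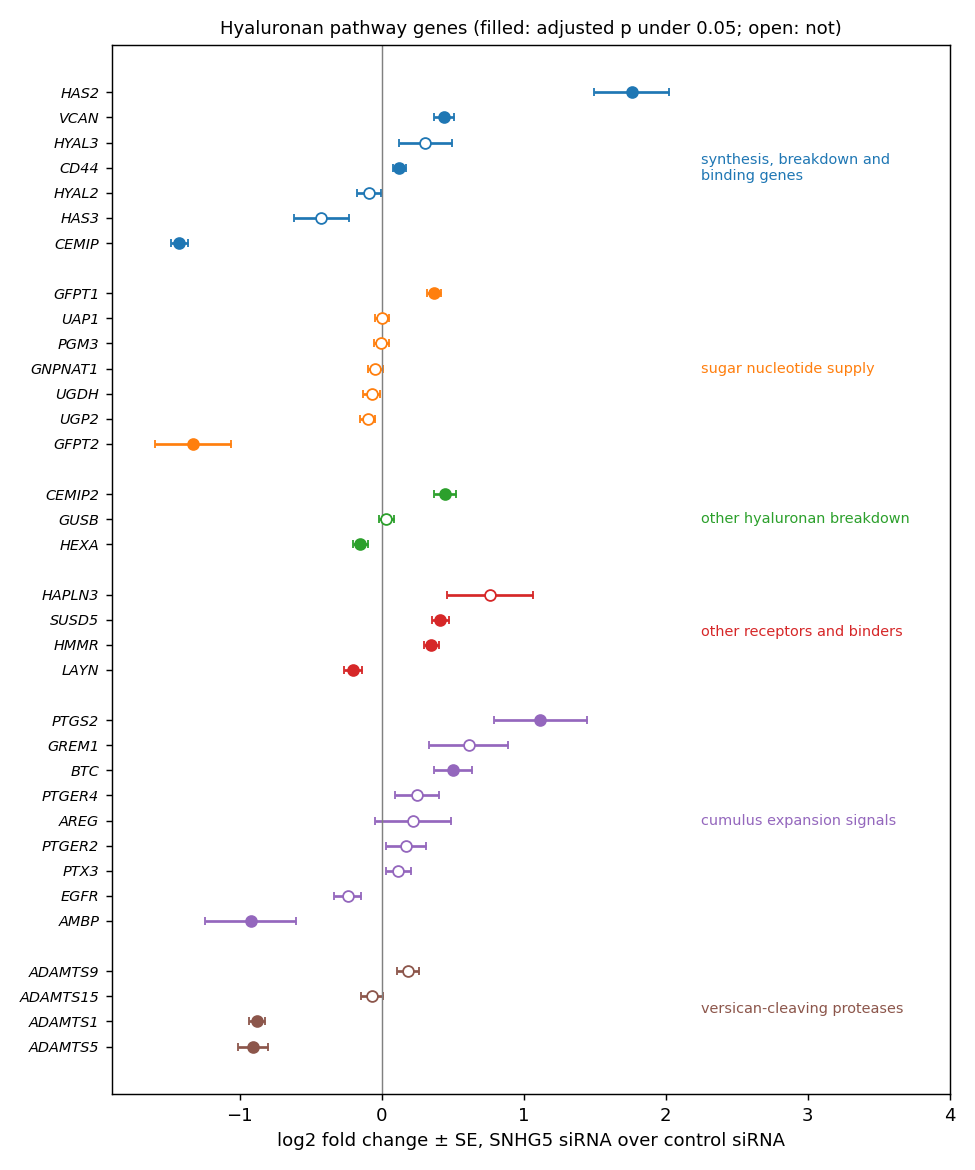
Log2 fold change of SNHG5 siRNA over control siRNA with its SE for tested genes of the hyaluronan list and of 5 further lists; filled points have an adjusted p under 0.05 in edgeR's quasi-likelihood test. HAS2 (1.76) and PTGS2 (1.12) lie farthest right, and CEMIP (-1.42) and GFPT2 (-1.33) farthest left.

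Of 6 proteases able to cut versican, 4 were tested, 0 were higher and 2 lower (median -0.47), where 40.2% of all tested genes passed, 19.9% as lower. ADAMTS1, the versicanase of the ovulating follicle in mice, had 109.8, 120.5 and 112.3 CPM with SNHG5 siRNA, against 198.9, 217.4 and 212.9 CPM with control siRNA. It fell 1.84-fold, with no overlap (-0.88 ± 0.06 SE, edgeR adjusted p = 6.01e-10). ADAMTS5, a further versicanase and aggrecanase, had 7.63, 8.80 and 7.72 CPM with SNHG5 siRNA, against 13.97, 14.28 and 17.21 CPM with control siRNA.

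ADAMTS5 fell 1.88-fold, again with no overlap (-0.91 ± 0.11 SE, edgeR adjusted p = 1.62e-06). ADAMTS9 (0.19, edgeR adjusted p = 0.0679) and ADAMTS15 (-0.07, edgeR adjusted p = 0.533) did not pass. ADAMTS9 passed as higher with no filter (0.19) and without SNHG5 siRNA replicate 2 (0.27). ADAMTS4 had 2, 0 and 0 counts with SNHG5 siRNA and 0 counts in each control siRNA library, and ADAMTS20 had 0, 1 and 0 counts with SNHG5 siRNA and 0, 0 and 2 counts with control siRNA.

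**Figure D5:**
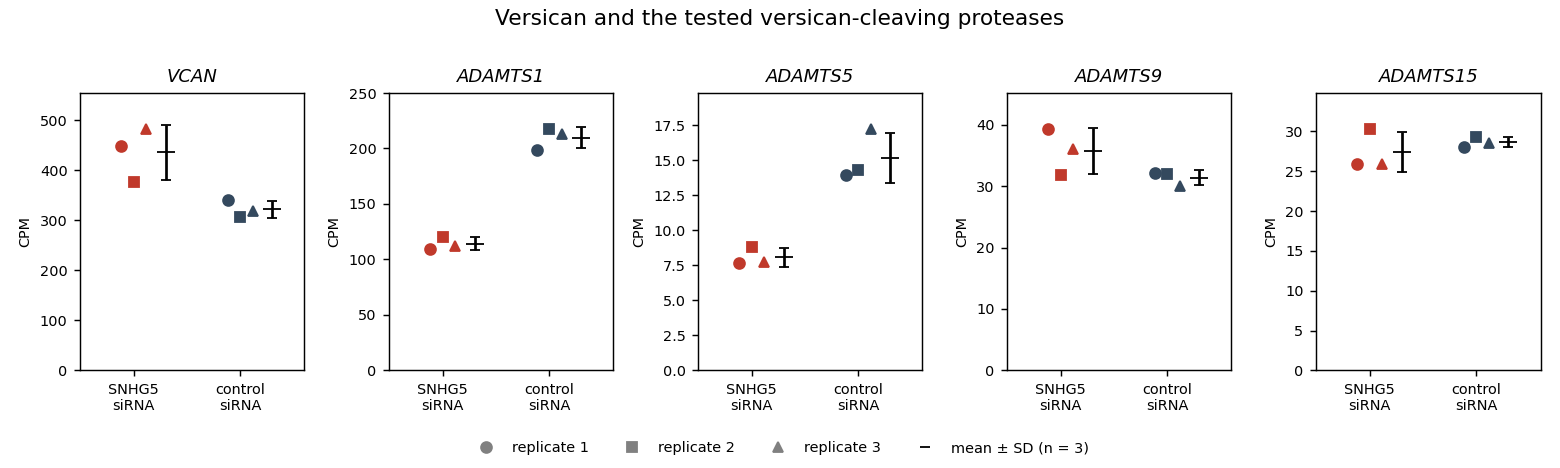
CPM of VCAN and of the 4 tested versican-cleaving proteases in each library, SNHG5 siRNA left of control siRNA, with mean and SD (n = 3). VCAN is higher and ADAMTS1 and ADAMTS5 are lower with SNHG5 siRNA without overlap, while ADAMTS9 and ADAMTS15 overlap.

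Among 11885 genes at a mean of 1 CPM or more, likeness to CEMIP and HAS2 was the root mean square difference of centred log2 CPM over the 6 libraries. For CEMIP the nearest were TULP3 (0.0553), a tubby-family protein of ciliary trafficking, CPA4 (0.0880), a carboxypeptidase, and HGSNAT (0.104), a lysosomal acetyltransferase of heparan sulphate breakdown. TULP3 averaged 24.1 CPM with SNHG5 siRNA and 62.3 CPM with control siRNA, a log2 fold change of -1.37; those of CPA4 and HGSNAT were -1.28 and -1.26.

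For HAS2 the nearest genes, less close in this measure, were CDK14, a cyclin-dependent kinase (0.274), GANAB, a glucosidase of the endoplasmic reticulum (0.283), and LAMA4, a laminin chain (0.297). Their log2 fold changes were 1.39 for CDK14, 1.38 for GANAB and 1.33 for LAMA4. HAS2 had only 14 to 68 counts per library, and the log2 CPM used a prior count of 2, which narrows differences at low counts. How far this and counting error shape its distances was not tested. With 6 libraries in 2 groups, such likeness mostly reflects the difference between the groups, and it is a description.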

How the data were processed

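Libraries made with a SMARTER mRNA-seq kit from KGN cells were measured, 3 with SNHG5 siRNA and 3 with control siRNA, from 1 µg of total RNA each. Per the submitters' processing notes, the authors used Trimmomatic and genome build GRCh38; what aligned and counted the reads, by which annotation and with or without strand, is not given in the sources used here. Deposited counts were whole numbers per gene name, not normalised by the authors. The deposited FPKM were scaled by the authors to gene length and depth; their tool is likewise not given. The count table held 0 columns of other samples. The FPKM were not checked for such columns. Names that look like dates, 27 in all with 0.257% of counts, stayed in the tests unnamed.

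With edgeR 4.0.16 in R 4.3.3, counts were scaled (TMM factors 0.998 to 1.003), filtered by filterByExpr and tested with the quasi-likelihood test (2-sided), with Benjamini-Hochberg adjustment over 12508 genes and a threshold of 0.05. The SE printed with edgeR's log2 fold changes was their absolute value divided by the square root of the test's F statistic. The test was also run on simulated counts drawn independently for each gene. Those counts lack the length-linked deviation of SNHG5 siRNA replicate 2, so that run does not cover it. Alternatives used other scalings, DESeq2 1.42.0, no filter, limma 3.58.1 on log2(FPKM + 0.1) or log2(FPKM + 1), a replicate block, and each library left out. Library totals were 18232634 to 22088913 counts, and a floor of 3 counts was used; intervals (95%) and floors cover counting error only.

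The members and lists were chosen with earlier results of these data known. From each list up to 4 passing genes with the largest changes were named, with PTX3, PTGS2, AREG and EREG; further genes of the lists were picked once their values had been seen. A gene of the breakdown list is in the counts but is not reported here. Positions, exon lengths and 3' UTRs are from GENCODE v29 (19266 names matched), and the microRNA and promoters from RefSeq GRCh38.p14.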

Additional observations from a re-analysis of the deposited data

How the results depend on the processing

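HAS2, CEMIP and VCAN kept their direction and their side of the threshold under every alternative run; leaving out each library gave log2 fold changes of 1.59 to 1.94 for HAS2, -1.48 to -1.37 for CEMIP and 0.36 to 0.54 for VCAN. The CD44 call ended with upper quartile scaling (0.08), on log2(FPKM + 0.1) with and without a filter (0.1234) and on log2(FPKM + 1) (0.1203). It also ended in 5 of 6 fits without a library (0.1081 to 0.1397). CD44 still passed without SNHG5 siRNA replicate 2, at 0.159. HAS3 did not pass except in 2 fits without a library (-0.5689 and -0.5785), and was at -0.5785 to -0.2003 over all 6 such fits. HYAL2, at -0.09, was at 0.0022 on log2(FPKM + 0.1), with and without a filter, and at 0.0015 on log2(FPKM + 1), and never passed. The cause was not tested. The number of members that passed was 3 or 4.

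Genes that passed as lower numbered 1658 on log2(FPKM + 0.1) and 1542 without its filter, against 2488, and cumulus expansion signals that passed numbered 1 with DESeq2 and 1 on the unfiltered FPKM scale, against 3. Without a library, 3991 to 5608 genes passed. Upper quartile factors in place of TMM made a further difference: 39.95% of the calls were higher ones (50.5% under TMM) and the median of all genes was -0.05. Genes near 0 that changed sign without passing were PGM3 (0.002 with DESeq2, 0.0045 with no filter, -0.0293 to 0.0281 without a library), UAP1 (-0.0395 with upper quartile scaling, -0.023 and -0.0227 on the FPKM scales, -0.0387 to 0.0304 without a library), GUSB (-0.0085 with upper quartile scaling) and ADAMTS15 (0.0119 and 0.0106 on the FPKM scales).

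With the replicate number as a block, 5714 genes passed, against 5026, and 4 of the hyaluronan genes, as without it; EGFR (-0.25) and ADAMTS9 (0.18) then passed. Deviations from the group means correlated at 0.046, 0.130 and 0.026 between libraries of the same number, and at -0.116 to 0.084 between libraries of different numbers. SNHG5 siRNA replicate 3 was closest to control siRNA replicate 1 (0.084). Whether libraries of the same number share a culture or batch was not tested. Depth limits HAS1, HYAL1 and TNFAIP6, for which no difference was detectable.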
